A study of Mus musculus with 12 samples.

Results

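The SLAM family receptor genes are described here in the hippocampus of APP/PS1 mice and wild-type controls. They are 7 genes of chromosome 1, namely Ly9, Cd84, Cd48, Slamf1, Slamf7, Slamf8 and Slamf9, out of 55573 genes in the count table. The family was picked because Ly9 and Cd84 were known to be higher in APP/PS1, so the values of the 7 genes between the genotypes are given as a description with no test. Whole right hippocampi were taken at 4.5 months from 4 APP/PS1 and 2 wild-type (WT) mice of each sex, which makes 12 libraries of poly-A RNA, one per animal. The APP/PS1 mice (APPSwe/Ps1dE9) carry a mutated chimeric mouse/human APP and a human PS1 without exon 9, both driven by prion promoter elements, on C57BL/6J. The WT mice were of the same strain and age and carried neither transgene. With 2 WT animals per sex, every level in a WT group rests on a pair of libraries.

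SLAM receptors are small immunoglobulin-like proteins on the surface of blood-derived and myeloid cells. Most bind a copy of themselves on a neighbouring cell, and their tails carry tyrosine motifs that recruit the adaptor SAP (Sh2d1a), its relatives EAT-2 (Sh2d1b1, Sh2d1b2), the kinase Fyn or inhibitory phosphatases. Cd48 differs in that it has no tail, is tethered by a lipid anchor and binds Cd244a and Cd2, while Slamf8 and Slamf9 have short tails without the usual motifs. In macrophages, members of the family are known for roles in adhesion, phagocytosis and control of the NADPH oxidase, and in brain the cells that would carry them are mainly microglia.

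The members lie in a main cluster and a smaller one further along chromosome 1 (GRCm38, GENCODE M21). Ly9 (ENSMUSG00000004707) spans positions 171588624 to 171607410 on the minus strand, and its start is 232.3 kb from that of Cd84 (ENSMUSG00000038147, 171839697 to 171890718, plus strand). Between them lie Slamf7 (ENSMUSG00000038179, 171632403 to 171653035, minus strand), Cd48 (ENSMUSG00000015355, 171682009 to 171705258, plus strand) and Slamf1 (ENSMUSG00000015316, 171767127 to 171801184, plus strand). Slamf9 (ENSMUSG00000026548, 172475358 to 172478575, plus strand) and Slamf8 (ENSMUSG00000053318, 172581758 to 172590568, minus strand) form the second group, with starts 115.2 kb apart. All counts are over whole genes, so exons are not told apart. Ly9 overlaps the antisense gene Cd244a, and the strand setting of the counting is not given in the sources used here. Cd244a had 5 to 29 counts in APP/PS1 libraries, against 59 to 122 for Ly9. In WT libraries Cd244a had 3 to 24 counts, against 1 to 14 for Ly9, so there the overlapping gene was counted as much as Ly9. The part of Cd244a reads in the Ly9 counts was not tested.

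The promoters of Cd84, Cd48 and Slamf9 are shown because these 3 genes varied together among the APP/PS1 animals, as described further on. Each window, from RefSeq on GRCm38.p6, holds 250 bases before the annotated start and 50 after it, 5′ to 3′ on the gene's own strand, and 6 of the 7 members matched a window, all but Ly9. Capitals mark GAGGAA, the core of sites for PU.1, a transcription factor of myeloid cells, and GGAAGT, a core of its wider ETS family, each searched on both strands, so that a match on the opposite strand reads TTCCTC or ACTTCC.
Cd84 (chr1:171839447-171839746, plus strand): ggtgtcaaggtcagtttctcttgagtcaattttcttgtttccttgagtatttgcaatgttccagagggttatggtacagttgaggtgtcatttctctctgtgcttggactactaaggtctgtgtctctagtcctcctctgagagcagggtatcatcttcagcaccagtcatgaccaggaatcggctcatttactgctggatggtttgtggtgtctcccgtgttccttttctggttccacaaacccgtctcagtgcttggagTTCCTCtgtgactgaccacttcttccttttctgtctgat
Cd48 (chr1:171681742-171682041, plus strand): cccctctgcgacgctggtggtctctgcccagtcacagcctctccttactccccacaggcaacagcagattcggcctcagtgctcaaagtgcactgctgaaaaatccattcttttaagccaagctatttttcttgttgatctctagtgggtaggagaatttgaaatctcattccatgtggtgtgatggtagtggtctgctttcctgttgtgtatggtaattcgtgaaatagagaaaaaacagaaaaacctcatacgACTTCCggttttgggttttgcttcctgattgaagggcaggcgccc
Slamf9 (chr1:172475110-172475409, plus strand): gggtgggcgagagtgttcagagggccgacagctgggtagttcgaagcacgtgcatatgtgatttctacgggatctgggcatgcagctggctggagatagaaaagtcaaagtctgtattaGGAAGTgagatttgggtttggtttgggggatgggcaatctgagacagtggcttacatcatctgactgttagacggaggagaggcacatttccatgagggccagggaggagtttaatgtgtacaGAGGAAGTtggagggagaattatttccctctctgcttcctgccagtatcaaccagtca
GAGGAA was found in 3 of the 6 member windows (Cd84, Slamf8 and Slamf9) and in 28.3% of the 32851 windows of all genes. GGAAGT was found in 3 of the 6 (Cd48, Slamf8 and Slamf9) and in 23.8% of all windows. In Slamf9 the matches at 8 and 6 bases before the start overlap in one run of capitals. Of the other letters searched, TGANTCA (AP-1) was in 3 member windows (Cd84, Slamf7, Slamf8; 7.81% of all), CACGTG (E-box) in 2 (Slamf8, Slamf9; 7.15% of all) and the interferon response motif (GAAA, 2 bases of any kind, GAAA) in 1 (Slamf8; 3.44% of all). These are matches of letters, not shown binding sites.

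Library totals were 36714316 to 50643565 counts. Levels are given as normalised CPM, counts scaled to the total and the upper quartile of each library. A gene entered the fits across genes if its log2 CPM reached 1 in at least 3 libraries, which 14008 genes did. Of the 7 members, Ly9, Cd84, Cd48 and Slamf9 passed and Slamf1, Slamf7 and Slamf8 did not. Ly9, Cd48 and Slamf9 reached that level only in APP/PS1 libraries, whereas Cd84 was above it in every library. Neuronal markers summed to 5410 to 6080 CPM in every library. WT female 2 and, in APP/PS1, female 1 and male 2 stood apart from the rest of their groups in choroid plexus transcripts (9 markers summing to 3870 to 6940 CPM, against 23.7 to 42.3 CPM elsewhere), and WT male 2 held more neutrophil transcripts than the rest (8 markers, 10 CPM against 0.076 to 1.55 CPM elsewhere).

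Ly9, a receptor that binds itself, was nearly silent in WT hippocampus and clearly counted in APP/PS1. APP/PS1 females had 2, 3.06, 2.44 and 2.40 CPM and WT females 0.238 and 0.0219 CPM. APP/PS1 males had 2.91, 1.69, 1.33 and 2.06 CPM and WT males 0.184 and 0.276 CPM. No APP/PS1 library came near a WT library, and the WT values rest on 1 to 14 counts each. The means were 2.24 ± 0.586 (SD, n = 8) and 0.18 ± 0.112 CPM (SD, n = 4), a ratio of 12.4. The fitted log2 fold change was 3.73 (SE 0.36) with the sexes averaged, 4.29 (SE 0.54) in females and 3.16 (SE 0.47) in males. The female value depended on which WT female was kept: it was 6.52 without WT female 1, which had 9 counts, and 3.43 without WT female 2, which had 1 count and was rich in choroid plexus transcripts. The averaged value was 4.83 and 3.29 in the same fits.

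Cd84, another receptor that binds itself, had the most counts of the family in every library, at 252 to 551 counts in APP/PS1 and 112 to 154 in WT. APP/PS1 females had 8.87, 8.36, 12.7 and 9.75 CPM and WT females 2.96 and 2.50 CPM. APP/PS1 males had 8.63, 10.2, 7.78 and 6.41 CPM and WT males 3.16 and 3.03 CPM. The lowest APP/PS1 library, male 4, lay clear of the WT libraries, at 6.41 CPM against 3.16 CPM in the highest WT library. The means were 9.09 ± 1.87 (SD, n = 8) and 2.91 ± 0.287 CPM (SD, n = 4), a ratio of 3.12. The fitted log2 fold change was 1.58 (SE 0.14) averaged, 1.79 (SE 0.20) in females and 1.37 (SE 0.19) in males. Leaving out any single library kept the averaged value between 1.5 and 1.66.

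Cd48, the anchored ligand of Cd244a and Cd2, was present in WT at a low level and higher in APP/PS1. APP/PS1 females had 2.89, 1.65, 2.86 and 2.17 CPM and WT females 0.688 and 0.746 CPM. APP/PS1 males had 2.03, 2.15, 1.40 and 1.27 CPM and WT males 0.527 and 0.926 CPM. The groups did not overlap, but APP/PS1 males 3 and 4 lay close above WT male 2. The means were 2.05 ± 0.605 (SD, n = 8) and 0.722 ± 0.165 CPM (SD, n = 4), a ratio of 2.84. The fitted log2 fold change was 1.43 (SE 0.23) averaged, 1.76 (SE 0.34) in females and 1.10 (SE 0.33) in males. WT male 2, with the neutrophil transcripts, had the highest Cd48 of the WT libraries, and the male value was 1.59 without it and 0.72 without WT male 1. The part of neutrophil RNA in this was not tested.

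Slamf9, a receptor with no established ligand, moved in a similar range. APP/PS1 females had 2.13, 1.60, 3.29 and 1.78 CPM and WT females 0.767 and 0.570 CPM. APP/PS1 males had 2.24, 2.48, 1.38 and 1.68 CPM and WT males 0.395 and 0.552 CPM. Here too every APP/PS1 library was above every WT library. The means were 2.07 ± 0.613 (SD, n = 8) and 0.571 ± 0.153 CPM (SD, n = 4), a ratio of 3.63. The fitted log2 fold change was 1.84 (SE 0.28) averaged, 1.73 (SE 0.39) in females and 1.96 (SE 0.40) in males. Each APP/PS1 library lay above each WT library in 1.31% of the 14008 genes. Ly9, Cd84, Cd48 and Slamf9 were among them, but 2 of these 4 were the reason for looking at the family, so nothing is read from that count.

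**Figure D1:**
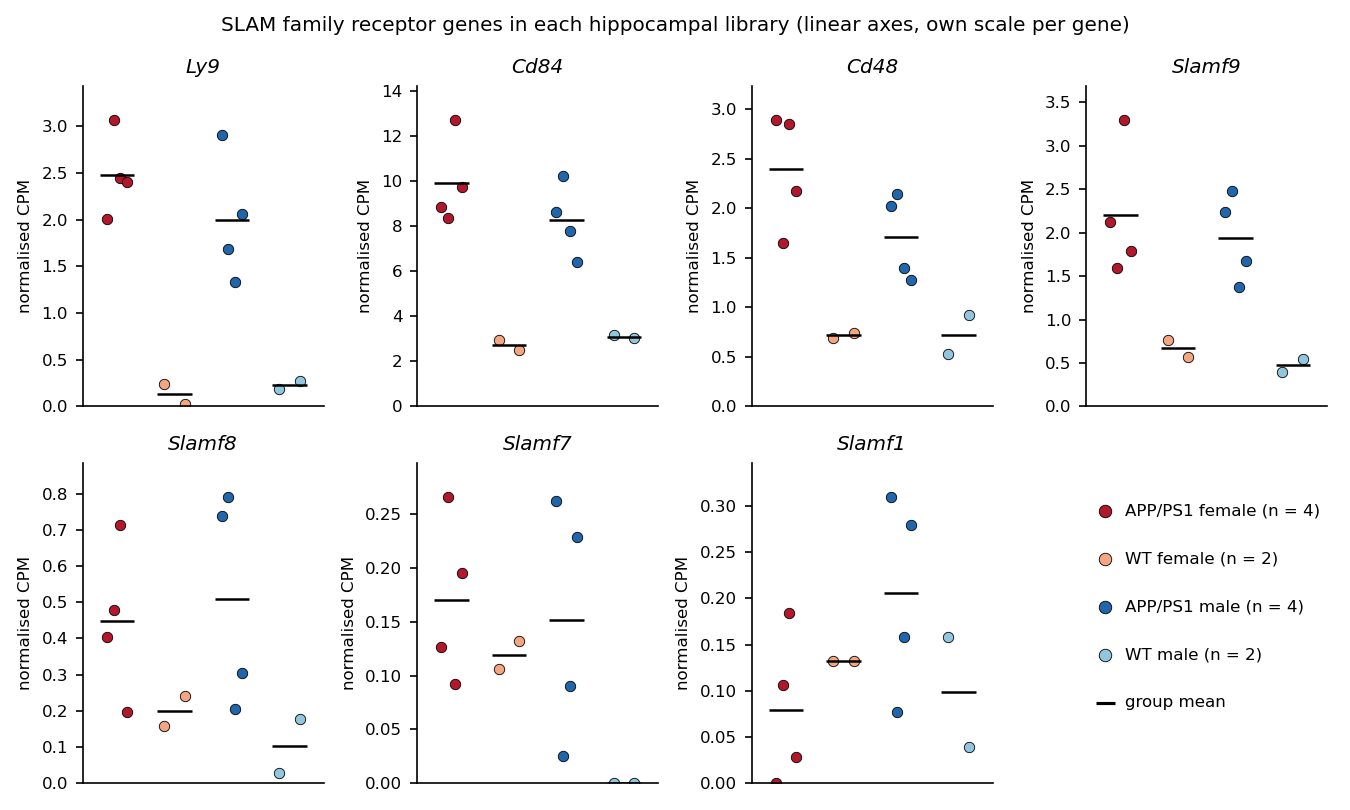
Normalised CPM (linear vertical axes, each gene on its own scale) of the 7 SLAM genes in each of the 12 libraries, by genotype and sex, with points for libraries and bars for group means. For Ly9, Cd84, Cd48 and Slamf9 all 8 APP/PS1 points lie above all 4 WT points, while for Slamf8, Slamf7 and Slamf1 they overlap.

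The other 3 members were at the edge of detection. Slamf8, known from macrophages as a brake on the NADPH oxidase, had 16, 18, 31 and 7 counts in APP/PS1 females, 31, 31, 9 and 12 in APP/PS1 males, 6 and 11 in WT females and 1 and 9 in WT males. The lowest APP/PS1 libraries overlapped the highest WT libraries, with mean levels of 0.479 ± 0.243 (SD, n = 8) and 0.151 ± 0.0903 CPM (SD, n = 4). Slamf7, which takes part in the engulfment of blood cells by macrophages, had 5, 10, 4 and 7 counts in APP/PS1 females, 11, 1, 4 and 9 in APP/PS1 males and 4 and 6 in WT females. Both WT males had 0 Slamf7 counts, and a count of 0 allows up to 3 counts, or 0.079 and 0.0591 CPM in these libraries. Slamf1, a receptor of lymphocytes and activated phagocytes, had 0 to 13 counts in APP/PS1 and 2 to 6 in WT. Its mean levels were 0.143 ± 0.112 (SD, n = 8) and 0.115 ± 0.0521 CPM (SD, n = 4), so a difference in Slamf1 was not detectable at this depth.

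Levels of different genes can be compared once divided by exon length. On that scale Cd48, Slamf9 and Cd84 stood together at the top in APP/PS1, with 1.73 ± 0.508, 1.58 ± 0.467 and 1.45 ± 0.298 CPM per kb (SD, n = 8), and their ranges overlapped. Ly9 followed at 0.676 ± 0.177 CPM per kb, below every value of those 3, and Slamf8 at 0.156 ± 0.0789 CPM per kb. Slamf7 and Slamf1 were last, at 0.0352 ± 0.0196 and 0.0232 ± 0.0182 CPM per kb, and did not differ beyond their spread. In WT the top 3 were again Cd48 (0.607 ± 0.139), Cd84 (0.465 ± 0.0458) and Slamf9 (0.435 ± 0.116 CPM per kb; SD, n = 4). Ly9, however, sat at 0.0544 ± 0.0338 CPM per kb in WT, within the range of Slamf8 (0.049 ± 0.0293 CPM per kb). Between the genotypes Ly9 thus went from the barely detected members to a place between them and the top 3.

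**Figure D2:**
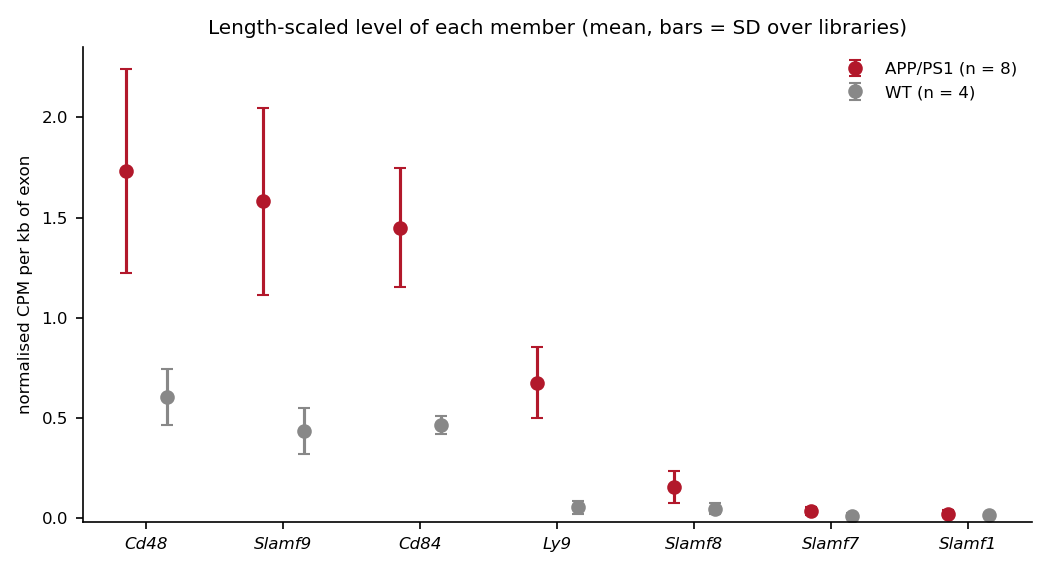
Normalised CPM per kb of exon (vertical axis, linear) for each SLAM gene in APP/PS1 (8 libraries) and WT (4 libraries), with points for means and bars for SD. Cd48, Slamf9 and Cd84 are highest in both genotypes, and Ly9 lies at 0.676 in APP/PS1 and 0.0544 in WT.

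The question of whether the genotype difference depended on sex was tested, since the members were not chosen for it. The difference between females and males in the APP/PS1 effect (interaction, edgeR quasi-likelihood test, two-sided, Benjamini-Hochberg over 14008 genes) was 1.13 on the log2 scale for Ly9 (SE 0.81, 95% interval -0.87 to 3.12), 0.41 for Cd84 (SE 0.27, -0.25 to 1.08), 0.66 for Cd48 (SE 0.47, -0.48 to 1.80) and -0.23 for Slamf9 (SE 0.56, -1.59 to 1.13). The adjusted p was 0.997 for each, and the interaction was called for 0 of the 4 members and 0% of all genes (edgeR likelihood ratio test and DESeq2 also called 0 members). At an unadjusted p under 0.05 there were 0 members and 544 of all genes. The intervals are wide enough to hold a female effect on Ly9 more than 2 log2 units above the male one, and they include 0 for all 4. The Ly9 interaction was 3.37 without WT female 1, 0.29 without WT female 2 and 0.72 without WT male 2, and that of Cd48 was 1.01 without WT male 1 and 0.14 without WT male 2. That of Slamf9 turned to 0.09 without WT female 1.

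Within APP/PS1, females were fitted higher than males for the 4 members, but none passed the test, against 0.0857% of all genes called. The log2 difference was 0.51 for Cd48 (SE 0.23, 95% interval -0.06 to 1.08), with an unadjusted p of 0.0486 and an adjusted p of 0.929 by the edgeR quasi-likelihood test. The 95% intervals, here and for the interaction, use 6 residual degrees of freedom, fewer than the test does. They can thus include 0 beside an unadjusted p under 0.05. The difference was 0.30 for Cd84 (SE 0.14, -0.04 to 0.65, adjusted p = 0.929), 0.29 for Ly9 (SE 0.28, -0.38 to 0.97, adjusted p = 0.976) and 0.21 for Slamf9 (SE 0.26, -0.44 to 0.85, adjusted p = 0.985). The intervals cover the fitted model only: with RUV controls chosen on the averaged genotype effect, the difference was 0.81 for Cd84 and 0.78 for Cd48 (adjusted p = 0.13 and 0.39 in edgeR). Cd48 was the only member of the 4 with an unadjusted p under 0.05, which 745 of all genes had, and the likelihood ratio test and DESeq2 called 0 members. These differences rest in part on APP/PS1 female 3, without which they were 0.15 for Cd84, 0.37 for Cd48 and -0.08 for Slamf9. For the members below the expression level of the fit, an exact permutation test over the 70 splits of the 8 APP/PS1 libraries (two-sided, smallest possible p 0.0286) gave log2 differences of -1.13 for Slamf1 (p = 0.143), 0.27 for Slamf7 (p = 0.629) and -0.10 for Slamf8 (p = 0.857). Between WT females and WT males, 0 of the 4 members were called, against 0.05% of all genes, 0 had an unadjusted p under 0.05 and the likelihood ratio test and DESeq2 called 0.

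Among the 8 APP/PS1 animals, Cd84, Cd48 and Slamf9 were high in the same libraries, and no correlation of Ly9 with them passed the test. Female 3 had the highest Cd84 and Slamf9 and the second highest Cd48, and male 3 was low in Cd48 and lowest in Slamf9. Over 6 pairs of members tested by exact permutation, Cd84 and Cd48 correlated with r = 0.821 (p = 0.0111, adjusted p = 0.0444; rho = 0.833, p = 0.0154). Cd84 and Slamf9 gave r = 0.8 by the same exact test (p = 0.0179, adjusted p = 0.0444; rho = 0.833), and Cd48 and Slamf9 gave r = 0.782 (exact p = 0.0222, adjusted p = 0.0444; rho = 0.667, p = 0.0831). Without the 2 libraries farthest from the median, r was 0.598, 0.711 and 0.683, and without the choroid plexus-rich APP/PS1 libraries it was 0.963, 0.786 and 0.856. Ly9 gave r = 0.172 with Cd84, 0.23 with Cd48 and 0.245 with Slamf9 (exact permutation p = 0.693, 0.583 and 0.56, with adjusted p = 0.693 for each; rho 0.0714, 0.0476 and 0.143), and 0.0882, 0.072 and 0.0791 without the 2 farthest libraries. Without the choroid plexus-rich APP/PS1 libraries (n = 6) the Ly9 values were 0.314, 0.47 and 0.442. Whether these correlations differ from those of the other 3 pairs was not tested, and with 4 libraries per sex no correlation within a sex is given. The permutations ignored sex, and the mean log2 level was higher in females by 0.471 for Cd48, 0.262 for Cd84 and 0.155 for Slamf9. The correlations therefore do not separate a shared sex difference from variation between animals.

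The genes most like 3 of the members over the same 8 libraries are given as a description, by Pearson's r of log2 CPM over all tested genes. Each list holds the highest of 14007 values, and how high the top values run by chance was not computed. No shared function is read from the lists. The 5 genes most like Cd84 were Ccl9 (r = 0.945), Ccl6 (0.937), Pno1 (0.927), Trmt61a (0.915) and Hist2h3c2 (0.914), of which Ccl9 and Ccl6 are chemokines of myeloid cells. Those most like Cd48 were Serpinf1 (0.966), Naip2 (0.953), Tlr13 (0.95), Lyz2 (0.95) and Msn (0.948). Naip2 and Tlr13 are innate sensors, Lyz2 is the lysozyme of myeloid cells and Msn links membrane to actin. Those most like Ly9 were B9d2 (0.965), Lcmt2 (0.944), Cd2bp2 (0.94), Stt3b (0.934) and Gm43254 (0.933), among them a cilium gene and a subunit of the glycosylation machinery. Ranked by r with Cd84 among 14007 genes, Cd48 was 96 and Slamf9 138 from the top, and Ly9 was 5760.

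The level of microglial RNA moved with some of these genes. The 12 microglial markers summed to 530 to 804 CPM in APP/PS1 and 356 to 418 CPM in WT, with means of 654 ± 93.7 (SD, n = 8) and 398 ± 28.9 CPM (SD, n = 4), a ratio of 1.64. In bulk tissue, more cells of a type and more RNA per cell cannot be told apart. Over the 8 APP/PS1 libraries the summed markers tracked Slamf9 most closely, with r = 0.961 (4 relations, exact permutation p = 0.00067, adjusted p = 0.00268; rho = 0.881, p = 0.00724) and r = 0.922 without the 2 farthest libraries. For Cd48 r was 0.758 (exact p = 0.0353, adjusted p = 0.0706; rho = 0.5, p = 0.216) and for Cd84 0.679 (exact p = 0.0597, adjusted p = 0.0796; rho = 0.619, p = 0.115), and these fell to 0.549 and 0.382. For Ly9 r was 0.334 (exact p = 0.419, adjusted p = 0.419; rho = 0.405, p = 0.327) and it was -0.244 without the 2 farthest libraries. Without the choroid plexus-rich APP/PS1 libraries (n = 6) the r with the markers was 0.963 for Slamf9, 0.77 for Cd48, 0.668 for Cd84 and 0.546 for Ly9. These relations were computed after the pairwise ones had been seen, and they too pool the sexes.

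**Figure D3:**
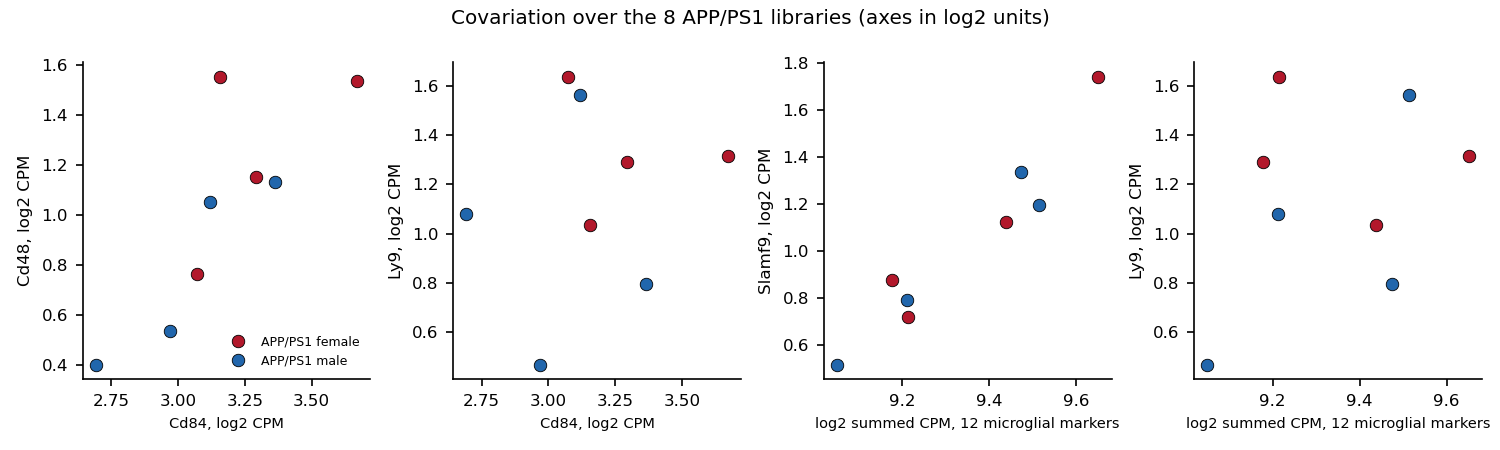
Each point is 1 of the 8 APP/PS1 libraries (4 females, 4 males), with log2 normalised CPM on the vertical axes and, on the horizontal axes, log2 CPM of Cd84 (left pair of panels) or the log2 summed CPM of 12 microglial markers (right pair). Cd48 follows Cd84 (r = 0.821) and Slamf9 follows the microglial markers (r = 0.961), and for Ly9 the r values are 0.172 with Cd84 and 0.334 with the markers, over all 8 libraries.

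Set against the microglial markers, Ly9, Cd84 and Slamf9 were higher in every APP/PS1 library than in any WT library, as a description. The share of all genes separated on this ratio was not computed, so nothing is read from that separation. The markers themselves rose unevenly, with log2 fold changes (sexes averaged) from 0.25 for Tmem119 to 1.06 for Gpr34. Per 1000 CPM of summed markers, Ly9 had a mean of 3.44 CPM in APP/PS1 (2.37 to 5.15) and 0.438 in WT (0.0617 to 0.661). Cd84 had 13.9 CPM (10.8 to 16.8) and 7.32 (7.04 to 7.83), and Slamf9 had 3.11 CPM (2.6 to 4.1) and 1.44 (0.979 to 1.85). Cd48 had 3.1 CPM (2.15 to 4.16) and 1.82 (1.3 to 2.22), with overlapping ranges. Markers of other cells that carry SLAM receptors were low. The 16 lymphocyte markers summed to 2.66 to 4.2 CPM in APP/PS1 and 2.15 to 2.74 CPM in WT, with overlapping ranges. Of the 16, 15 had a higher mean in APP/PS1, and the share of such genes among others with as few counts was not computed. Lck gave 41 to 67 counts per library, with means of 1.4 and 1.39 CPM, and the other markers at most 30 counts, with means summing to 1.8 CPM in APP/PS1 and 1.08 CPM in WT. Among them, Trbc2 had 5 to 29 counts in APP/PS1 and 1 to 9 in WT, Cd8a 1 to 10 and 1 to 3, and Cd3e 0 to 5 and 0 to 2. None of the 16 reached the level needed for the fit, and their part in the values of the SLAM genes was not tested. The 10 markers of border macrophages and monocytes summed to 7.76 to 12.5 CPM in APP/PS1 and 7.14 to 13.5 CPM in WT.

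The genes through which SLAM receptors signal moved unevenly. Of 32 such genes, 25 were tested, and with the sexes averaged 8 rose in APP/PS1, 0 fell and 17 did not pass (edgeR quasi-likelihood test, adjusted p under 0.1), against 1.76% of all genes called higher and 0.171% lower. Their median log2 fold change was 0.31, against 0.01 over all genes. The count of 8 was 3 without WT female 1, WT female 2 or WT male 1 and 5 without APP/PS1 male 2 or WT male 2. In the same contrast 9 of the 12 microglial markers were called higher, with a median of 0.72, and their part in this result was not tested.

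Of the 8 genes called, 6 belong to the oxidase or to the integrin and adaptor chains that work with Slamf7. Cybb, the catalytic subunit of the phagocyte NADPH oxidase, rose from 0.37 to 0.631 CPM in WT to 0.701 to 3.5 CPM in APP/PS1, a log2 fold change of 2.19 (SE 0.33, adjusted p = 0.00771 in edgeR). It reached the level needed for the fit only in APP/PS1 libraries. Its call and its place among the 8 are therefore not independent of its rise. Of the 4 genes of the Slamf7 phagocytic complex all rose, namely the ITAM adaptors Tyrobp (1.69, SE 0.21, adjusted p = 0.0127) and Fcer1g (1.13, SE 0.11, adjusted p = 1.7e-04) and the integrin chains Itgb2 (1.13, SE 0.22, adjusted p = 0.0424) and Itgam (0.50, SE 0.12, adjusted p = 0.0605). Slamf7 itself was at 1 to 11 counts in the APP/PS1 libraries. Cybb, Tyrobp and Fcer1g stayed called under all 22 alternative settings tried, while Itgam was lost in 10 and Itgb2 in 6.

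Upstream, the adaptors of the SAP family were scarce and 1 of the 4 kinases rose. Sh2d1a, which encodes SAP, had 21 to 36 counts in APP/PS1 females, 12 to 19 in APP/PS1 males and 7 to 21 in WT, below the level needed for the fit. Sh2d1b1 had 0 to 8 counts and Sh2d1b2 at most 1. Fyn, the kinase that SAP recruits, was abundant and gave a log2 fold change of 0.01 (SE 0.04, adjusted p = 0.963), with a sign that changed with the settings. Fes, a kinase of myeloid cells, rose by 0.59 (SE 0.13, adjusted p = 0.0455), and Vav1, an exchange factor downstream of the receptors, by 0.68 (SE 0.17, adjusted p = 0.0759), calls lost in 10 and 8 of the 22 alternatives. The inhibitory phosphatases Ptpn6 (1.02, SE 0.25, adjusted p = 0.105) and Inpp5d (0.50, SE 0.13, adjusted p = 0.129) did not pass the test and passed it in 6 and 5 of the 22 alternatives.

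Of the binding partners and relatives outside the 7, none reached the level needed for the fit. Slamf6, a receptor that binds itself, had 11 to 35 counts in APP/PS1 and 3 to 10 in WT. Its levels were 0.249 to 0.887 and 0.0794 to 0.197 CPM, without overlap and without a test. The share of genes with as few counts that separate in this way was not computed, so nothing is read from it. Cd244a, the receptor for Cd48, had 5 to 29 counts in APP/PS1 and 3 to 24 in WT, with overlapping levels of 0.369 ± 0.243 (SD, n = 8) and 0.248 ± 0.179 CPM (SD, n = 4). Cd2, the other partner of Cd48, had at most 4 counts in any library. Scaled for exon length, Cd48 had 1.73 CPM per kb in APP/PS1, against 0.0757 for Cd244a and 0.0194 for Cd2.

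Within a sex the number of signalling genes called depended on the test. In females 4 of 25 rose, against 0.714% of all genes called higher, among them Cybb, Tyrobp and Fcer1g with log2 fold changes of 2.74, 1.91 and 1.34. The female count was 8 by the likelihood ratio test, 9 by DESeq2 and 2 with the replicate block. In males 1 rose, Fcer1g, against 0.178% of all genes, and the count was 3, 4 and 0 in the same 3 fits. With a library left out, the female count was 1 without either WT female and 2 without APP/PS1 male 2 or WT male 1, and the male count was 0 without APP/PS1 male 2, WT male 1 or WT male 2 and 2 without APP/PS1 female 3 or APP/PS1 male 3.

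**Figure D4:**
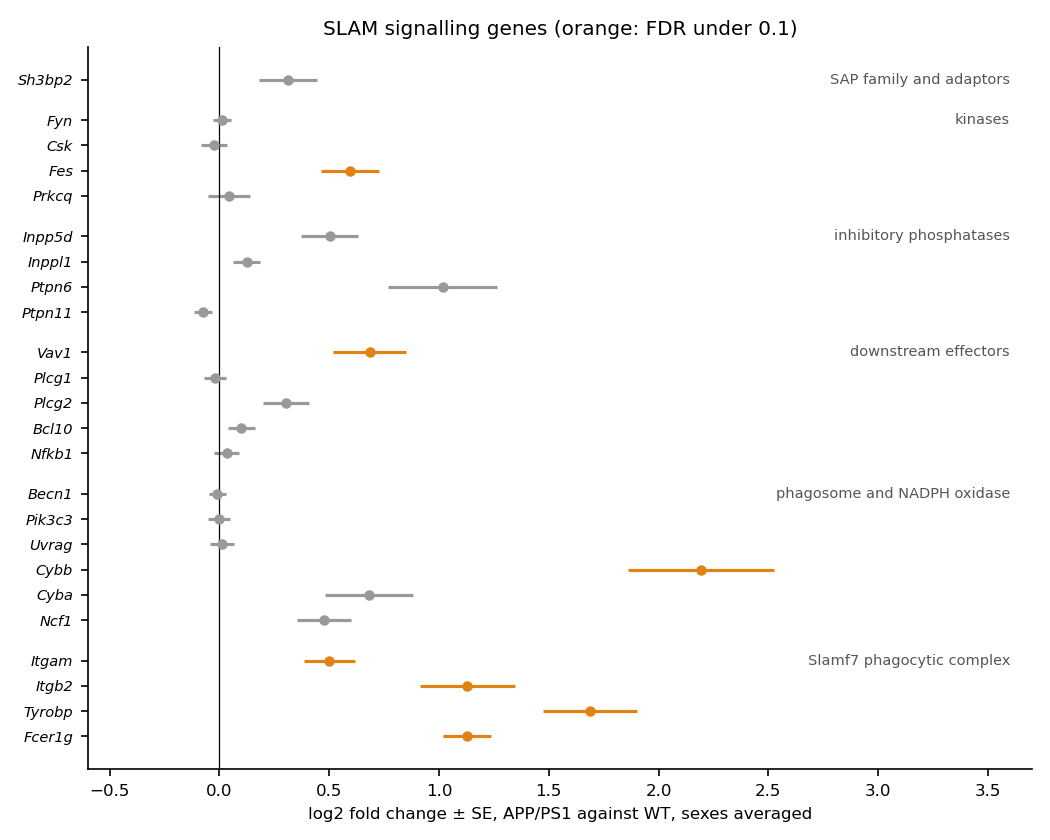
Log2 fold change of APP/PS1 against WT with the sexes averaged (horizontal axis, points with SE bars) for 24 tested SLAM signalling genes, grouped by role, with the 7 of these called at an adjusted p under 0.1 in orange. All 4 genes of the Slamf7 phagocytic complex are orange, and Cybb has the highest value, 2.19.

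The members' neighbours on chromosome 1 were examined to see how far the difference extended along the chromosome. Of 71 protein-coding genes within 1 Mb that are not members, 45 were tested, and 3 rose and 0 fell, against 1.93% of all genes called. The median log2 fold change of the 45 was 0.04, against 0.01 over all genes. Of the 45, 32 were fitted above 0, a share that was not computed for all genes. The 3 were the Fc receptor genes Fcgr2b (1.07, SE 0.17, adjusted p = 0.0116 in edgeR) and Fcgr3 (0.78, SE 0.17, adjusted p = 0.076) and the DNA sensor Aim2 (0.65, SE 0.14, adjusted p = 0.0431). The Fc receptor genes are alike in sequence, so reads shared between them cannot be placed with certainty. The 3 starts lie 630.9 and 542.5 kb before that of Ly9 and 1743.5 kb beyond it. The count of 3 was 1 without APP/PS1 female 2, WT female 1 or WT female 2. The tested genes flanking the main cluster were Alyref2 before Ly9 (0.15, SE 0.22, adjusted p = 0.886) and Vangl2 beyond Cd84 (0.06, SE 0.12, adjusted p = 0.913). Further before Ly9, F11r (0.37, SE 0.11, adjusted p = 0.213 in edgeR) and Arhgap30 (0.55, SE 0.21, adjusted p = 0.379) were fitted higher but not called. Their starts lie 169.9 and 218.5 kb from that of Ly9. Around the second cluster, Pigm before Slamf9 gave 0.03 (SE 0.11, adjusted p = 0.966) and Dusp23 beyond Slamf8 gave 0.07 (SE 0.11, adjusted p = 0.888).

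**Figure D5:**
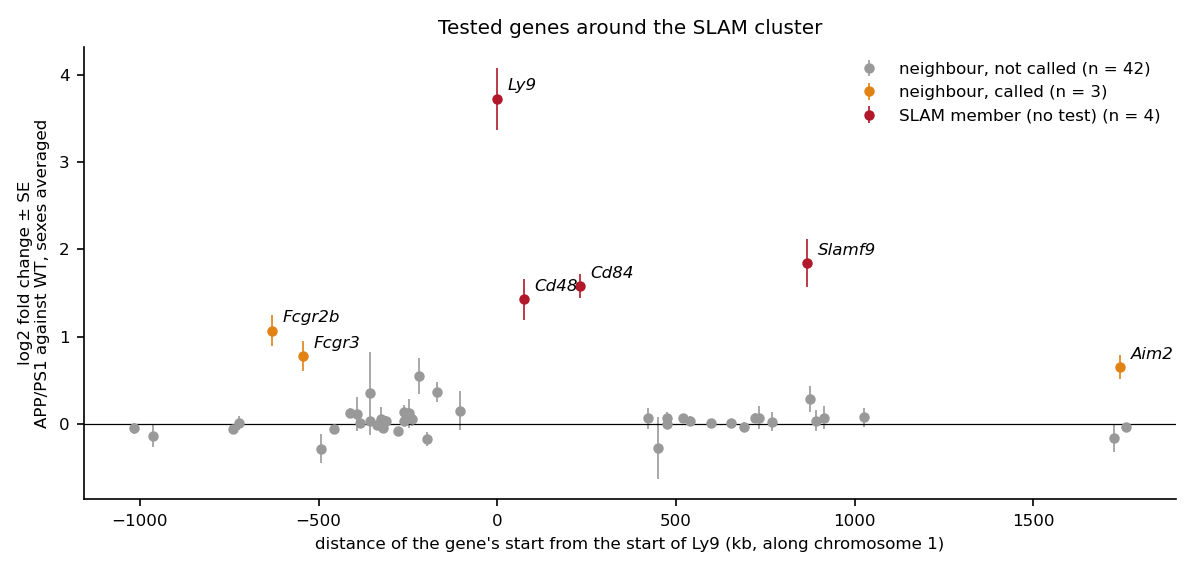
Log2 fold change of APP/PS1 against WT with the sexes averaged (vertical axis, points with SE bars) of the tested genes around the SLAM clusters, against the distance of each gene's start from that of Ly9 in kb (horizontal axis). The 4 members are shown without a test and 3 neighbours are called (Fcgr2b, Fcgr3 and Aim2). The other 42 are not called, with values from -0.28 for Cfap126 to 0.55 for Arhgap30.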

How the data were processed

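Per the labels and methods, the authors made directional paired-end libraries and used Trimmomatic for trimming, STAR for alignment (GRCm38) and HTSeq for counting, and the deposited counts per gene are raw. Versions, annotation release and the strand setting of the counting are not given in the sources used here. Counts over 55573 genes (55394 matched to GENCODE M21) were filtered at a log2 CPM of 1 in 3 libraries, scaled by upper quartile and fitted with 4 groups and 2 RUV factors (genes outside the first 5000 of a first-pass test as controls) in edgeR 4.0.16 (R 4.3.3), quasi-likelihood test, adjusted p under 0.1 over all genes. DESeq2 1.42.0 was an alternative. RUV was rebuilt in R and the fit was checked on simulated data. Intervals and floors cover counting error or the fit only.

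The members and lists were chosen with earlier results of these data known. Named genes were all members, signalling and neighbouring genes that were called, a fixed set of binding partners and the 5 genes most like Ly9, Cd84 and Cd48. Tested neighbours flanking the clusters were named too, and F11r, Arhgap30 and Cfap126 were named for their values. Correlations used log2 CPM with a prior count of 2, for members with at least 10 counts in every APP/PS1 library. Replicates of a group differed beyond sampling noise (chi-square per degree of freedom 11.6 to 52 over 14 pairs). Nothing gives litters or processing batches, so p-values measure the spread between these animals. Values of some genes on the lists are not reported here, though they enter the counts.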

Additional observations from a re-analysis of the deposited data

How the results depend on the processing

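The calls of 0 members for the interaction and for both sex differences were the same under 23 alternatives each, and the replicate block called 0 in each too. The correlations among members kept their sign and call under TMM scaling (adjusted p = 0.0484 for the 3 called). Signalling genes called with the sexes averaged (8) were 4 with the replicate block and 3 to 10 with a library left out. In females (4) they were 8 by the likelihood ratio test, 9 by DESeq2, 2 with the replicate block, 2 without the choroid plexus-rich libraries, 2 at an adjusted p under 0.05 and 1 to 6 with a library left out. In males (1) they were 3 by the likelihood ratio test, 4 by DESeq2, 2 without RUV factors, 0 with the replicate block, 2 without the choroid plexus-rich libraries and 0 to 2 with a library left out. Neighbours called (3) were 1 with the replicate block and 1 to 4 with a library left out. The cause of these shifts was not tested. The labels do not say whether a replicate number links animals. Of 14 same-numbered pairs, with correlations of -0.673 to 0.732, 4 were over 0.1. In a group of 2 libraries the deviations from the mean mirror each other, so this check cannot tell whether same-numbered animals were paired. The pair at 0.732, WT female 2 and APP/PS1 male 2, were both choroid plexus-rich.

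With a library left out, the fitted log2 fold change of Ly9 ranged from 3.29 to 4.83 averaged and from 3.43 to 6.52 in females (3.46 without the choroid plexus-rich libraries), and that of Cd48 in males from 0.72 to 1.59. Fyn reversed to -0.0029 in DESeq2, -0.0038 with no expression filter and -0.0102 without the choroid plexus-rich libraries, and ranged from -0.017 to 0.038 with a library left out. The Slamf9 interaction ranged from -0.56 to 0.0913 and its sex difference within APP/PS1 from -0.0796 to 0.345. The correlation of Ly9 with the microglial marker sum turned to -0.244 without the 2 farthest libraries and was 0.546 without the choroid plexus-rich ones. When RUV controls were chosen on the averaged genotype effect, the sex difference within APP/PS1 was 0.81 for Cd84 and 0.78 for Cd48 (adjusted p = 0.13 and 0.39). Without the choroid plexus-rich libraries Slamf9 fell below the expression filter and has no value there. Leaving out those libraries in the correlations, and the relation to microglial markers, were chosen after seeing the data. Over all genes 270 were called with the sexes averaged, 173 without RUV factors, 399 by the likelihood ratio test and 400 by DESeq2. Counts of 1 to 14 limit Ly9 in WT, and counts of at most 31 limit Slamf1, Slamf7 and Slamf8.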
